A study of Mus musculus with 6 samples.

Results

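Integrins are cell surface receptors built from 1 alpha and 1 beta chain, and laminins are the basement membrane proteins, built from 1 alpha, 1 beta and 1 gamma chain, that several of these receptors bind. The RNA of their genes was measured in mouse lung tumors after treatment with tamoxifen or corn oil. Every integrin alpha or beta gene name and every laminin alpha, beta or gamma gene name on the array was taken, which gave 26 integrin and 11 laminin chains, 37 of 36870 gene names in all. Each name was represented by its brightest probe. The rule used gene names and brightness and no difference between tamoxifen and oil. It was chosen with earlier results of these data known.

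The mice were C57BL/6J, and both groups carried the same 3 alleles, Ror1f/f, CAG-CreER and SPC-hEGFRdel746-750. These are a Ror1 gene flanked by Cre recognition sites, a Cre recombinase that tamoxifen switches on and the broadly active CAG promoter drives, and a mutant human EGFR under the surfactant protein C promoter, which drives it in alveolar epithelium, so that Ror1 was a target in every cell type in which Cre was active and not in tumor cells alone. One group of 3 samples came from mice given tamoxifen and the other group of 3 from mice given corn oil, over the 4 weeks from 16 to 20 weeks of age, with tumors taken at 20 weeks. The title of the series names the role of Ror1, a receptor of Wnt5a, in lung adenocarcinoma. The labels do not say whether samples with different numbers came from different animals, so the spread between them may in part be technical. Levels of sex-linked RNA, given below, differed within each group, so the samples of a group were not all from 1 animal. Total RNA of tamoxifen sample 1 was hybridised together with oil sample 1, and so on for numbers 2 and 3. Each such couple was run on 2 arrays with the Cy3 and Cy5 dyes exchanged. The 6 arrays lay on 1 slide and were read in 1 scan.

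The unit of the comparison was the log2 ratio of tamoxifen over oil within a couple, averaged over its 2 arrays, so that a value of 1 is a 2-fold higher signal in tamoxifen. The mean over 3 couples was tested against 0 with limma, two-sided, and p-values were adjusted by Benjamini-Hochberg over all 20475 genes whose probe was well above background. Levels are given as normalized log2 signals of a probe, and they do not compare one gene with another. An SD of a ratio is over the 3 couples.

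The share of probes well above background was 51.8% to 58.8% over the channels of the arrays, and 0 spots were saturated. Ror1, the floxed gene, had log2 signals of 9.35, 9.30 and 9.17 in the samples labelled tamoxifen, against 8.76, 8.86 and 8.99 in those labelled oil, a log2 ratio of 0.40 ± 0.21 (SD, n = 3; adjusted p = 0.688). All 3 tamoxifen samples were above all 3 oil samples. The floxed exon is not named in the labels, so whether the probe lies in the deleted part is unknown, and the treatment labels are unchecked. The sex-linked transcripts Xist and Eif2s3y had log2 ratios of -2.13 and 3.71 in couple 1, against 0.09 and 0.14 in couple 2 and 0.10 and 0.63 in couple 3. The members of couple 1 thus differed in sex-linked RNA as well as in treatment, and chains whose mean moved by over 0.15 without couple 1 are given below with that value where they are named. Couples 2 and 3 differed from each other. In tamoxifen and oil, Eif2s3y had log2 signals of 6.2 and 6.06 in couple 2, against 10.7 and 10.07 in couple 3. Xist had 9.09 and 8.99 in couple 2, against 6.08 and 5.98 in couple 3. The part of sex in the spread between couples was not tested. Markers of alveolar type 2 cells, the cells in which the transgene is driven, were present: 10 of 10 were tested, and their summed log2 signal was 19.18 to 19.19 in tamoxifen samples and 19.44 to 19.5 in oil samples. Of the list, 8 of 10 mean ratios were below 0 and 0 passed the test. These are bulk samples, in which fewer cells of a type and less RNA per cell cannot be told apart.

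Integrins hold cells to their matrix and signal from it through talin, kindlin and focal adhesion kinases. In lung, laminins lie in the basement membranes under alveolar and airway epithelium and around vessels. The receptor made of Itga6 and Itgb4 chains anchors epithelial cells to a laminin that holds the Lama3 and Lamb3 chains at hemidesmosomes. The receptor made of Itgav and Itgb6 chains releases active TGF-beta from its latent form on epithelium, and leukocytes carry receptors of their own built on Itgb2 and Itgb7.

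None of the chains passed the test. Of the 37, 35 were tested, 24 integrins and 11 laminins, and 0 had an adjusted p under 0.05 (smallest 0.688, largest 0.995). Over all genes tested, 0 of 20475, or 0%, passed. With the 6 arrays fitted singly and the couple as a replicate block, 0 of 35 chains and 0.274% of all genes passed, and with a dye term added 0 of 35 chains and 0.044% of all genes. At an unadjusted limma p under 0.05, 1 of 35 chains was found, Itgae, or 2.86%, against 7.01% of all genes. Itga2b, the alpha chain of platelets and megakaryocytes, and Itgad, a leukocyte alpha chain, were too dim to test. Itga2b was well above background in 0 of 6 tamoxifen readings and 1 of 6 oil readings, and Itgad in 0 of 6 and 2 of 6, so no fold change is given for either. Itga2, Itgb8 and Lamc3 were tested but dim. In tamoxifen and oil, Itga2 was well above background in 4 of 6 and 5 of 6 readings, Itgb8 in 4 of 6 and 3 of 6, and Lamc3 in 4 of 6 and 5 of 6.

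**Figure D1:**
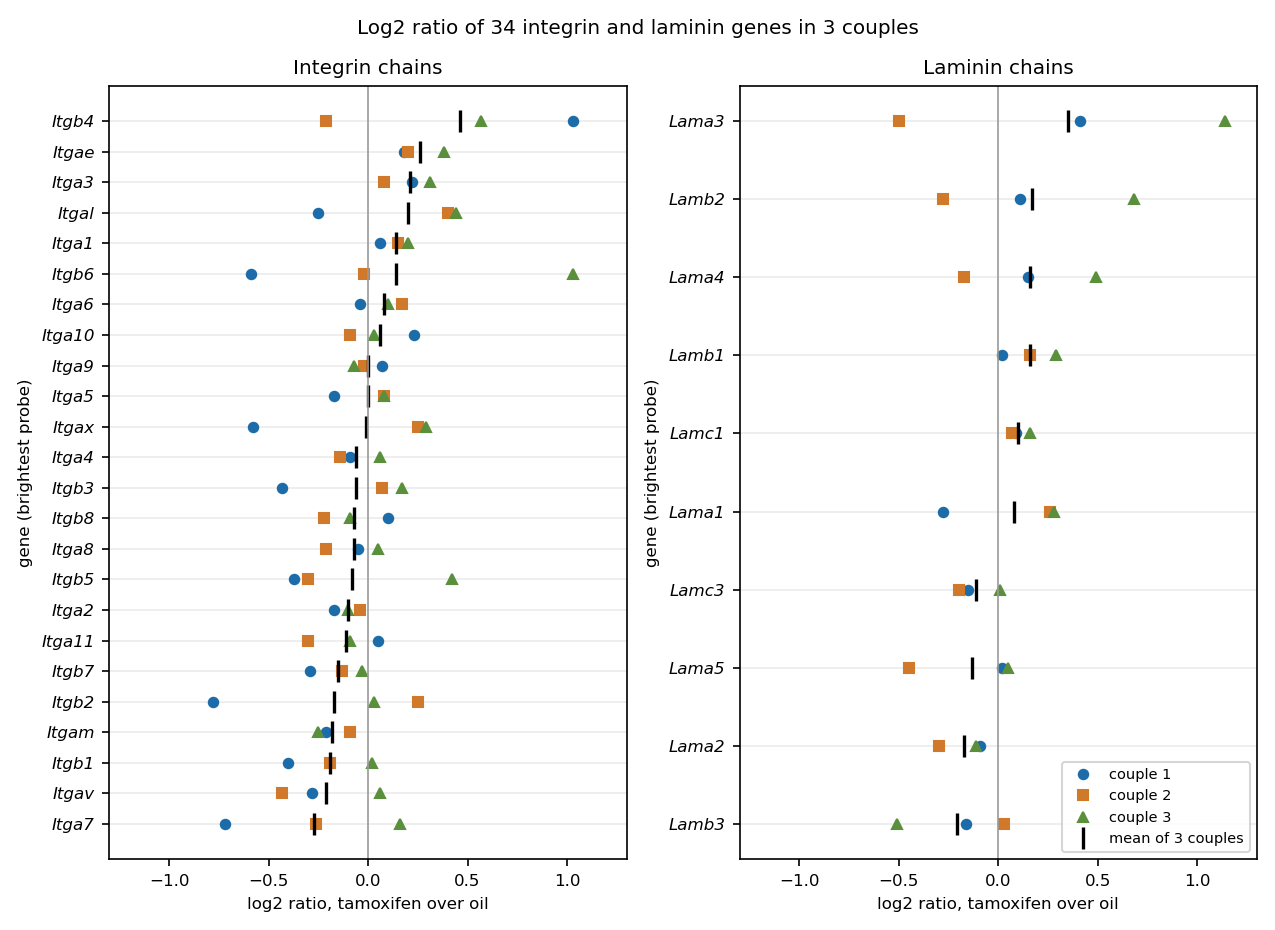
Log2 ratio of tamoxifen over oil (x axis) for the brightest probe of 24 integrin and 10 laminin chains (y axis), with a symbol for each of the 3 couples and a black bar for their mean. The widest spreads are those of Lama3 (range 1.64), Itgb6 (1.63), Itgb4 (1.24) and Itgb2 (1.03), while Itgae lies above 0 and Itgam below 0 in all 3 couples.

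The integrin chains had a median log2 ratio of -0.06 and the laminin chains of 0.08, against 0 for all genes tested. By couple, the integrin median was -0.17, -0.06 and 0.07 in couples 1, 2 and 3, and the laminin median was 0.02, -0.17 and 0.16. The mean ratio was below 0 for 21 of 35 chains, or 60%, against 51.2% of all genes. Neither family's median kept 1 side of 0 in all couples. Couple 3 stood out by its count: 26 of 35 chains, or 74.3%, were above 0 there, against 48.9% of all genes, while 14 of 35, or 40%, were above 0 in couple 1 (48.5% of all genes) and likewise 14 of 35 in couple 2 (49.8% of all genes). The difference in count between couples was not tested.

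A total of 9 of 35 chains, or 25.7%, had the same sign in all 3 couples, which 30.2% of all genes did. Itga1, Itga3, Itgae, Lamb1 and Lamc1 were above 0 in every couple, 14.3% of the chains against 13.8% of genes. Itga2, Itgam, Itgb7 and Lama2 were below 0 in every couple, 11.4% of the chains against 16.4% of genes, and Itga2 is one of the dim chains. For Itgb7, another probe was above 0 in every couple, as given below. On the single arrays, Itga1, Itga3 and Itgae were above 0 on all 6, 8.57% of the chains against 6.04% of genes, and Itgam and Lama2 were below 0 on all 6, 5.71% against 7.21%. Together these 5 were 14.3% of the chains, against 13.3% of genes. These shares are near those of the array as a whole. Chains beyond a 2-fold difference in at least 1 couple were Itgb4, Itgb6 and Lama3, 8.57% of the chains against 3.29% of genes, and each of these was on the other side of 0 in another couple.

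Among the laminin alpha chains, Lama3 varied most. Lama3 is the alpha chain of the epithelial laminin of hemidesmosomes. Its log2 signals were 9.79, 8.93 and 9.92 in tamoxifen samples 1, 2 and 3, against 9.38, 9.43 and 8.78 in oil samples 1, 2 and 3. Tamoxifen sample 2 and oil sample 3 were low, and the groups overlapped. The log2 ratios were 0.41, -0.50 and 1.14, with a mean of 0.35 ± 0.82 (adjusted p = 0.808), and the mean without couple 3 was -0.05. A second probe of Lama3 gave 0.42, -0.37 and 0.83 in the same couples, so both probes had the same sign in each couple.

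Lamb3, the beta chain that pairs with Lama3, had another order of the couples. It had log2 ratios of -0.16, 0.03 and -0.51 (mean -0.21 ± 0.28, adjusted p = 0.737), with signals of 13.51, 13.59 and 13.62 in tamoxifen samples and 13.67, 13.56 and 14.14 in oil samples. Oil sample 3, the lowest of the oil samples for Lama3, was the highest of all 6 samples for Lamb3. In couple 3 the ratio was 1.14 for Lama3 and -0.51 for Lamb3. Of 5 basal cell markers, 4 were tested and 3 had mean ratios above 0, as 9983 of all 20475 genes did. These were Krt5 at 0.04, Trp63 at 0.03 and Krt6a at 0.02, while Krt14 had -0.14, 0.15 and -0.48 (mean -0.16 ± 0.31). Krt5 and Krt14 were dim. In tamoxifen and oil, Krt5 was well above background in 4 of 6 and 1 of 6 readings, and Krt14 in 3 of 6 and 4 of 6. Dsg3 was not well above background. The summed log2 signal of the list was 12.08 to 12.22 in tamoxifen samples and 12.11 to 12.15 in oil samples. The part of basal cells in the values of Lama3 and Lamb3 was not tested.

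Lamb3 was measured by a second probe whose mm9 position, chr1:195167088-195169619 on the plus strand, is longer than the probe's 60 bases, so the probe bridges spliced RNA. It is shown, as is the second probe of Lamb1 at chr12:32012684-32014030 on the plus strand, because these probes repeat the couple values of the brightest probes from another stretch of the transcript. Sequences are from the deposited array files, written from 5′ to 3′ in lower case with no base singled out.
Lamb3 second probe: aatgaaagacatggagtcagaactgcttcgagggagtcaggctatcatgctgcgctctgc
Lamb1 second probe: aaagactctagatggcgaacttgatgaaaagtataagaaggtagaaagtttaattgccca
The second probe of Lamb3 gave -0.16, -0.03 and -0.57, where the brightest gave -0.16, 0.03 and -0.51. The second probe of Lamb1 gave 0.11, 0.13 and 0.28, where the brightest gave 0.02, 0.16 and 0.29.

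Lamb1 and Lamc1 are the beta and gamma chains of the laminins most common around vessels and in alveolar walls. Lamb1 was above 0 in all 3 couples, with signals of 11.47, 11.62 and 11.34 in tamoxifen samples and 11.45, 11.46 and 11.05 in oil samples. The groups overlapped, and the mean ratio was 0.16 ± 0.14 (adjusted p = 0.728). A further probe of Lamb1 had a mean of -0.04. By its brightest probe, Lamc1 had log2 ratios of 0.09, 0.07 and 0.16, the narrowest range of the 35 chains. The mean was 0.10 ± 0.04 (adjusted p = 0.778). The single arrays of this probe ran with the dye. They gave -0.07, -0.02 and 0.01 where Cy5 carried the tamoxifen sample, against 0.24, 0.17 and 0.30 where Cy3 carried it. The 3 other probes of Lamc1 had means of 0.11, 0.07 and -0.01. The first of these gave 0.05, 0.04 and 0.24 in couples 1, 2 and 3. Its single arrays gave 0.05, -0.01 and 0.21 with tamoxifen in Cy5, against 0.05, 0.10 and 0.27 in Cy3.

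Lamb2, the beta chain that replaces Lamb1 in the basement membranes of muscle, kidney glomeruli and vessels, had signals of 9.53, 9.26 and 9.50 in tamoxifen samples and 9.42, 9.54 and 8.82 in oil samples. Oil sample 3 was the lowest of the 6. The ratios of Lamb2 were 0.11, -0.28 and 0.68, with a mean of 0.17 ± 0.48 (adjusted p = 0.855) and of -0.09 without couple 3. Lama4, the alpha chain of endothelial laminins, had the same order of couples with 0.15, -0.17 and 0.49 (mean 0.16 ± 0.33, adjusted p = 0.808), and its mean without couple 3 was -0.01. The summed log2 signal of 8 endothelial markers was 13.44 to 13.73 in tamoxifen samples and 13.55 to 13.73 in oil samples, with 13.60 in oil sample 3. Of these markers, 7 of 8 had mean ratios above 0, as 9983 of all 20475 genes did. The mean over the list was -0.13, 0.14 and 0.26 in couples 1, 2 and 3. In couples 1 and 2 it had the opposite sign to Lamb2 and Lama4, and in couple 3 the same sign. The part of vessel cells in these values was not tested.

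Lama2, the alpha chain of muscle and nerve laminins, was the laminin chain below 0 on all 6 arrays. Its signals were 8.12, 8.23 and 8.10 in tamoxifen samples, against 8.21, 8.53 and 8.21 in oil samples. The highest tamoxifen value lay just above the lowest oil values, so the groups overlapped. The ratio was -0.17 ± 0.12 (adjusted p = 0.71). Mean ratios were below 0 for 5 of 5 smooth muscle and 6 of 6 heart muscle markers, against 51.2% of all genes. Des at -0.03 and Actc1 at -0.01 were near 0, and Myh6 had -0.16, -2.54 and 0.52. By couple, the list means were -0.14, -0.18 and 0.02 for smooth muscle and -0.18, -0.63 and -0.05 for heart muscle. Summed log2 signals of smooth muscle markers were 12.67 to 12.85 in tamoxifen and 12.63 to 13.05 in oil. Those of heart muscle markers were 10.28 to 10.47 in tamoxifen and 10.39 to 11.16 in oil. Of 7 fibroblast markers, 6 had mean ratios below 0, with a median of -0.19 and a summed log2 signal of 13.77 to 14.53 in tamoxifen and 14.02 to 14.64 in oil, and Col1a1, Col1a2 and Col3a1 were below 0 in each couple, while Dcn had -0.13, 1.71 and -0.43. The part of muscle cells and fibroblasts in the Lama2 value was not tested. Lama5, the alpha chain most widespread in adult epithelium, had ratios of 0.02, -0.45 and 0.05 (mean -0.13 ± 0.28, adjusted p = 0.829), and 0.03 without couple 2. Lama1, the alpha chain of early embryonic basement membranes, had -0.28, 0.26 and 0.28 (mean 0.08 ± 0.32, 0.27 without couple 1 and -0.01 without couple 3), and Lamc3 had -0.15, -0.20 and 0.01.

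Of the receptors of laminin, Itga3 was above 0 on all 6 arrays. Itga3 pairs with Itgb1 and binds laminins of the lung basement membrane. Its signals were 9.99, 9.70 and 9.78 in tamoxifen samples, against 9.77, 9.61 and 9.47 in oil samples, so that tamoxifen sample 2 lay below oil sample 1. The ratios of 0.22, 0.08 and 0.31 had a mean of 0.21 ± 0.11 (adjusted p = 0.688). A second probe gave 0.10, -0.08 and 0.11, a mean of 0.04, and the mean over probes was 0.12. Its beta partner Itgb1, shared by most alpha chains, had ratios of -0.40, -0.19 and 0.02 (mean -0.19 ± 0.21, adjusted p = 0.73), from signals of 13.40, 13.56 and 13.57 in tamoxifen samples and 13.80, 13.75 and 13.55 in oil samples. Tamoxifen sample 1 was the lowest and oil sample 1 the highest, and without couple 1 the mean of Itgb1 was -0.08.

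Itgb1 and Itgb6 were each covered by a probe that bridges spliced RNA, at chr8:131250081-131255976 on the plus strand for the second probe of Itgb1 and at chr2:60438632-60443247 on the minus strand for the brightest probe of Itgb6 (mm9). They are shown because both chains differed between couples in size and in sign.
Itgb1 second probe: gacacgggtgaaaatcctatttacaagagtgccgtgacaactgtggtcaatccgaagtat
Itgb6 brightest probe: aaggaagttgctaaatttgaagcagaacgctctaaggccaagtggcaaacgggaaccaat
The second probe of Itgb1 gave -0.57, -0.15 and 0.08 in couples 1, 2 and 3, the same signs and the same order as the brightest probe.

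The hemidesmosome receptor had its larger values in its beta chain. Itgb4 had log2 signals of 10.10, 8.87 and 9.0 in tamoxifen samples, against 9.07, 9.08 and 8.43 in oil samples. Tamoxifen sample 1 was the highest by over 1 log2 unit and oil sample 3 the lowest, and the groups overlapped. The ratios were 1.03, -0.21 and 0.57, with a mean of 0.46 ± 0.63 (adjusted p = 0.717), the mean farthest from 0 of the 35 chains, and 0.18 without couple 1. Its alpha partner Itga6 had ratios of -0.04, 0.17 and 0.10 (mean 0.08 ± 0.10, adjusted p = 0.85), on signals of 13.15, 13.31 and 13.47 in tamoxifen samples and 13.19, 13.15 and 13.37 in oil samples. In couple 1, where Itgb4 had its largest ratio, Itga6 was near 0. Of 4 other probes of Itga6, 1 gave 0.58 in couple 2. Itga7, the laminin-binding alpha chain of muscle, had ratios of -0.72, -0.26 and 0.16 (mean -0.27 ± 0.44, adjusted p = 0.757), with -0.05 without couple 1.

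**Figure D2:**
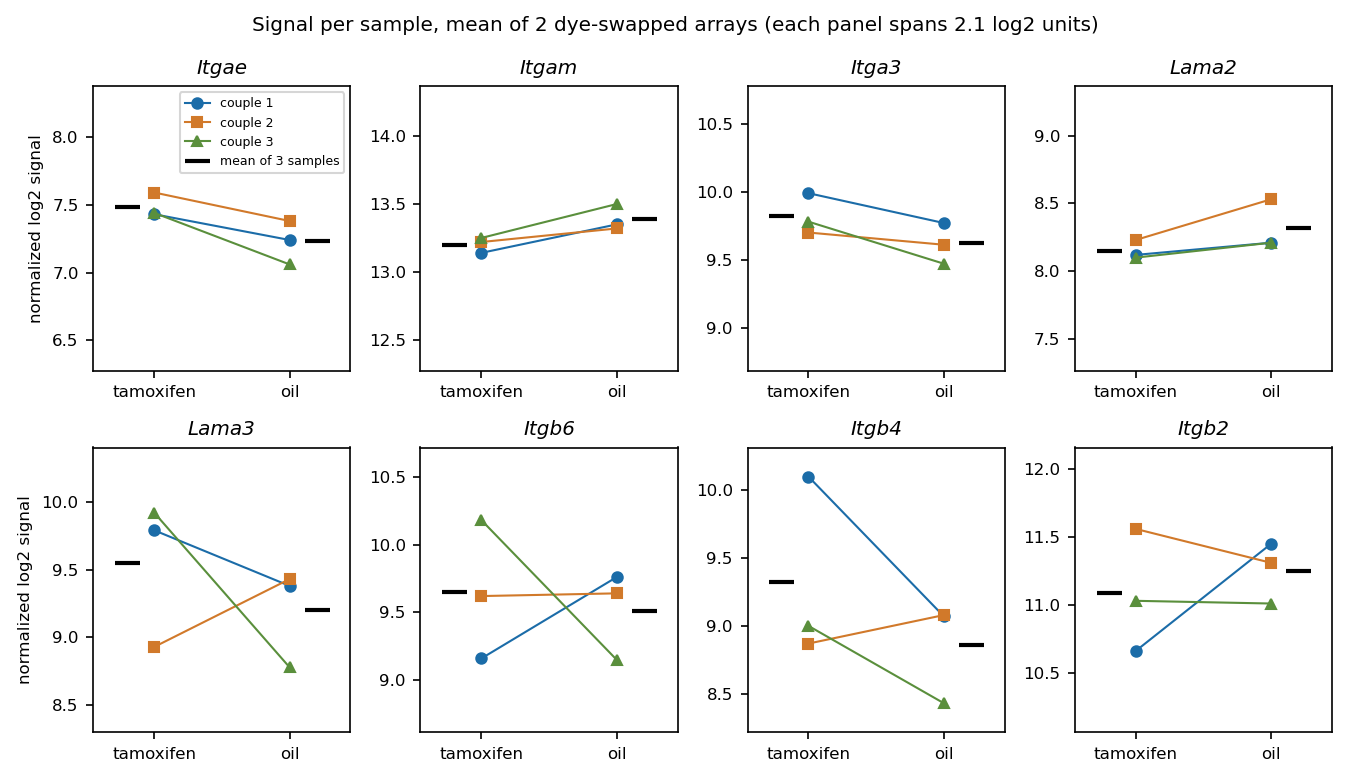
Normalized log2 signal (y axis) of 8 chains in the tamoxifen and oil samples (x axis), each point the mean of 2 dye-swapped arrays, with lines joining the samples of a couple and black bars for the mean of 3 samples. Within each upper panel the 3 lines slope the same way, and the groups do not overlap for Itgae and Itgam. In the lower panels the lines cross: for Itgb6 couple 1 has 9.16 in tamoxifen against 9.76 in oil, and couple 3 has 10.18 against 9.15.

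Among the receptors that bind the RGD motif of fibronectin, vitronectin and latent TGF-beta, Itgb6 turned with the couple. It is an epithelial beta chain whose only partner is Itgav. Its signals were 9.16, 9.62 and 10.18 in tamoxifen samples, against 9.76, 9.64 and 9.15 in oil samples. Tamoxifen sample 3 was the highest of the 6, while tamoxifen sample 1 and oil sample 3 were level at the low end. The ratios were -0.59, -0.02 and 1.03, with a mean of 0.14 ± 0.83 (adjusted p = 0.931), 0.50 without couple 1 and -0.31 without couple 3. The second probe gave -0.27, 0.08 and 0.61.

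Itgav itself had ratios of -0.28, -0.43 and 0.06 (mean -0.21 ± 0.25, adjusted p = 0.729), on signals of 11.47, 11.38 and 11.85 in tamoxifen samples and 11.75, 11.81 and 11.79 in oil samples. The oil samples lay close together and 2 of 3 tamoxifen samples were below them. Another probe of Itgav had a mean of 0.03, so its direction depended on the probe. Of its other beta partners, Itgb5 and Itgb3 also had their highest ratio in couple 3. Itgb5, found on epithelium and stroma, had -0.37, -0.30 and 0.42, with oil sample 3 at 11.15 against 11.99 and 12.12 in the other oil samples, and its mean of -0.08 ± 0.44 was 0.06 without couple 1. Itgb3, known from platelets, endothelium and macrophages, had -0.43, 0.07 and 0.17 (mean -0.06 ± 0.32, and 0.12 without couple 1). Itgb8, which also binds latent TGF-beta, differed in order with 0.10, -0.22 and -0.09. Of the alveolar type 1 markers, Pdpn had -0.22, 0.48 and 0.95 and Hopx had -0.24, 0.09 and 0.35, while Aqp5 had -1.11, -0.89 and -0.53. The mean over 5 such markers was -0.47, -0.13 and 0.36, and their summed log2 signal was 16.48 to 16.86 in tamoxifen samples and 16.66 to 16.91 in oil samples. The part of alveolar type 1 cells in these values was not tested.

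Itga5, the main fibronectin receptor alpha chain, had ratios of -0.17, 0.08 and 0.08 and a mean of 0.00 ± 0.14. Itga8, a chain of fibroblasts and smooth muscle that binds nephronectin, had a mean of -0.07 ± 0.13. Itga4, which binds VCAM-1 and a fibronectin segment, had -0.06 ± 0.11, and Itga9, which binds tenascin and VCAM-1, had 0.00 ± 0.07. The adjusted p of these 4 was between 0.872 and 0.995. For Itga4 the single arrays ran with the dye. They gave 0.09, 0.14 and 0.32 where Cy5 carried the tamoxifen sample, against -0.28, -0.43 and -0.19 where Cy3 carried it. Another probe of Itga9 gave -0.20, -0.09 and -0.12, where the brightest gave 0.07, -0.02 and -0.07.

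Of the collagen-binding alpha chains, Itga1 was above 0 on all 6 arrays. Itga1 is carried by smooth muscle, fibroblasts, endothelium and resident T cells. Its signals were 8.74, 8.83 and 8.67 in tamoxifen samples, against 8.68, 8.68 and 8.47 in oil samples, where the lowest tamoxifen value lay just under the 2 higher oil values. The ratio was 0.14 ± 0.07 (adjusted p = 0.735). The 4 other probes of Itga1 were nearer to 0 or below it: their means were -0.12, 0.01, 0.02 and 0.03, and the mean over its probes was 0.01 (adjusted p = 0.981). Itga2, the collagen receptor of epithelium and platelets, had -0.10 ± 0.06, and Itga10 and Itga11, known from cartilage and fibroblasts, had 0.06 ± 0.16 and -0.11 ± 0.17. None of these 3 had an adjusted p under 0.785. Another probe of Itga10 was below 0 on all 6 arrays, with -0.15, -0.09 and -0.02, so its direction depended on the probe.

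Itgae and Itgam were the chains whose tamoxifen and oil samples did not overlap, 2 of 35 or 5.71%, against 12.3% of all genes. Itgae, with tamoxifen above oil, was 1 of 35 or 2.86% (5.2% of all genes), and Itgam, with tamoxifen below oil, was also 1 of 35 (7.14% of all genes). Itgae and Itga1 were read by probes that bridge spliced RNA, at chr11:72959105-72960563 on the plus strand and at chr13:115756765-115758419 on the minus strand (mm9). These are shown because both chains had ratios above 0 on all 6 arrays.
Itgae brightest probe: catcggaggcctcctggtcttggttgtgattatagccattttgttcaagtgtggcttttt
Itga1 brightest probe: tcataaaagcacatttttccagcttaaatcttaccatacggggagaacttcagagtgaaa
Itgae pairs with Itgb7 and binds E-cadherin on epithelial cells, and is carried by T cells lodged in epithelium and by some dendritic cells. Its signals were 7.43, 7.59 and 7.44 in tamoxifen samples, against 7.24, 7.38 and 7.06 in oil samples. All tamoxifen samples were above all oil samples by a small margin. The ratios of 0.18, 0.20 and 0.38 had a mean of 0.26 ± 0.11, with an unadjusted limma p of 0.0331 and an adjusted p of 0.688. Without couple 1 the mean was 0.29. The size of the ratio depended on the processing: it was 0.43 (adjusted p = 0.741) in the scanner software's processed log ratio and in the deposited table, and 0.16 where Cy5 carried the tamoxifen sample, against 0.35 where Cy3 carried it.

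Its beta partner Itgb7 had no settled direction. The brightest probe, at chr15:102061127-102061186 on the minus strand, had ratios of -0.29, -0.13 and -0.03 (mean -0.15 ± 0.13, adjusted p = 0.738). Its single arrays ran with the dye: 0.14, 0.34 and 0.37 where Cy5 carried the tamoxifen sample, against -0.72, -0.59 and -0.42 where Cy3 carried it. Another probe, at chr15:102046450-102046509 on the minus strand, was above 0 on 6 of 6 arrays and gave 0.31, 0.17 and 0.24. Of T and NK cell markers, 7 of 9 were tested and 7 of 7 had mean ratios above 0, as 9983 of all 20475 genes did. Cd3d had 0.21 ± 0.13 and Lck 0.19 ± 0.11, while Cd3e at 0.03 and Cd4 at 0.02 were near 0. Gzma had -0.13, 0.01 and 0.64 in couples 1, 2 and 3. The summed log2 signal of the list was 11.30 to 11.52 in tamoxifen samples and 11.22 to 11.43 in oil samples. Cd8a was not well above background. Cdh1, the E-cadherin that Itgae binds, had ratios of -0.35, -0.54 and -0.13. The part of T cells in the Itgae value was not tested.

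The chains of macrophages, monocytes and neutrophils are Itgam and Itgax, each paired with Itgb2. Itgam, known as a receptor for complement fragments and ICAM-1, was below 0 on all 6 arrays. Its signals were 13.14, 13.22 and 13.25 in tamoxifen samples, against 13.35, 13.32 and 13.50 in oil samples. All tamoxifen samples were below all oil samples. The ratios of -0.21, -0.09 and -0.25 had a mean of -0.18 ± 0.08 (adjusted p = 0.688), and -0.17 without couple 1.

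Itgb2, the beta chain shared by Itgal, Itgam, Itgax and Itgad, had signals of 10.66, 11.56 and 11.03 in tamoxifen samples and 11.45, 11.31 and 11.01 in oil samples. Tamoxifen sample 1 was the lowest of the 6 and tamoxifen sample 2 the highest. The ratios were -0.78, 0.25 and 0.03, with a mean of -0.17 ± 0.54 (adjusted p = 0.874), and 0.14 without couple 1. Itgax, abundant on alveolar macrophages and dendritic cells, had ratios of -0.58, 0.25 and 0.29 (mean -0.01 ± 0.49, adjusted p = 0.994), and 0.27 without couple 1. Itgal, the alpha chain of lymphocytes that binds ICAM-1, had -0.25, 0.40 and 0.44 by its brightest probe (mean 0.20 ± 0.39, adjusted p = 0.793), and 0.42 without couple 1. Another probe of Itgal was below 0 on all 6 arrays, with -0.05, -0.24 and -0.21 (mean -0.17 ± 0.10), so its direction depended on the probe. Itgb2 and Itgax were below 0 in couple 1 and above 0 in the other couples, while Itgam was below 0 in each. In the reference gene table of assembly GRCm38.p6, Itgam, Itgax and Itgad are consecutive protein-coding genes on chromosome 7.

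The mean of 10 alveolar macrophage markers was -1.33, 0.76 and -0.73 in couples 1, 2 and 3. Marco, a scavenger receptor of that list, had -2.05, 2.07 and -3.01. Other markers of the list differed from it in couple 3. Siglecf had -0.85, 0.75 and 0.17, Krt79 had -1.32, 1.33 and -0.01, and Fabp5 had -1.41, 0.17 and -0.65. The summed log2 signal of the list was 15.78 to 17.83 in tamoxifen samples and 16.54 to 17.47 in oil samples, lowest in tamoxifen sample 1 and highest in tamoxifen sample 2, as for Itgb2. In couple 3, where this list was at -0.73, Itgax was at 0.29 and Itgb2 at 0.03. Monocyte and dendritic markers, 8 of 9 tested, had means of 0.05, -0.11 and -0.01, and 7 neutrophil markers had -0.07, 0.38 and 0.02. The part of these cells in the values of the leukocyte chains was not tested.

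**Figure D3:**
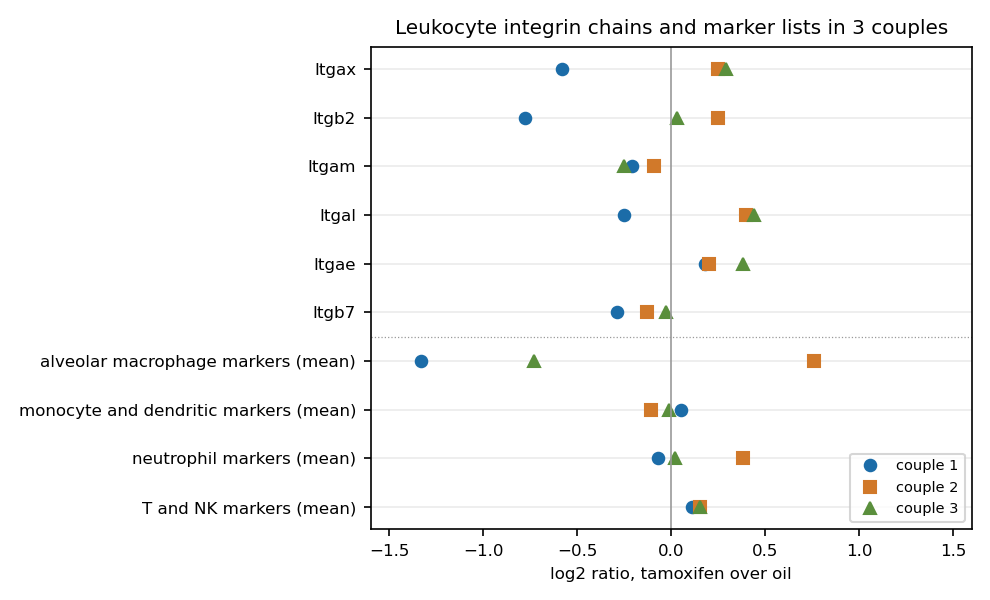
Log2 ratio of tamoxifen over oil (x axis) in 3 couples for 6 leukocyte integrin chains (rows above the dotted line) and for the mean of 4 lists of leukocyte markers (rows below it). Couple 1 is at -0.78 for Itgb2 and at -1.33 for the mean of alveolar macrophage markers. Itgae and the mean of the T and NK markers lie above 0 in all 3 couples.

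Genes that act with the integrins were read from 3 lists, and 0 passed the test in either direction. Of 22 adaptors and kinases of focal adhesions, 21 were tested, 6 with a mean ratio above 0 and 15 below, with a median of -0.06 against 0 for all genes. Lims1 and Ilk, partners in the complex that links beta chains to actin, had -0.23 ± 0.16 and -0.20 ± 0.14 and were below 0 in each couple. Tns3, a tensin, and Fermt2, a kindlin that activates integrins, had 0.12 ± 0.04 and 0.12 ± 0.06 and were above 0 in each. Adjusted p-values of these 4 were between 0.688 and 0.765.

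Of 14 other basement membrane components and laminin receptors, 13 were tested, 5 above 0 and 8 below, with a median of -0.05 and means over the list of -0.29, -0.06 and 0.23 in couples 1, 2 and 3. Cd151, a tetraspanin bound to laminin-binding integrins, had -0.34, -0.37 and -0.13 (mean -0.28 ± 0.13, adjusted p = 0.688), while Col4a2, a collagen IV chain, had -0.11 ± 0.15. Agrn and Hspg2, the proteoglycans agrin and perlecan, had 0.21 ± 0.41 and 0.17 ± 0.26. The order of couples, lowest in couple 1 and highest in couple 3, was also that of the integrin median and of Itgb6.

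Of 15 other integrin ligands, 14 were tested, 5 above 0 and 9 below, with a median of -0.10. Npnt, or nephronectin, the ligand of Itga8, had -0.27, -0.89 and -0.48 (mean -0.55 ± 0.31, adjusted p = 0.688), and Cdh1 had a mean of -0.34 ± 0.20 (adjusted p = 0.688). Postn, or periostin, had 0.29 ± 0.31 (adjusted p = 0.698). Jam2, an endothelial adhesion molecule that binds leukocyte integrins, had 0.10, 0.43 and 0.22 (mean 0.25 ± 0.17, adjusted p = 0.688).

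The chains varied more between couples than between the arrays of a couple. The median SD between couples was 0.175 over the 35 chains, 0.16 for integrins and 0.276 for laminins, against 0.167 for all genes. The SD from the gap between the dye-swapped arrays of a couple, with the constant dye offset taken out, had a median of 0.0409 over the chains and 0.0405 over all genes. For Lama3 the ratios were 0.47, -0.36 and 1.18 where Cy5 carried the tamoxifen sample, and 0.35, -0.64 and 1.10 where Cy3 carried it. A range over couples above 1 was found in 4 of 35 chains, or 11.4%, against 6.29% of all genes: Itgb2, Itgb4, Itgb6 and Lama3.

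**Figure D4:**
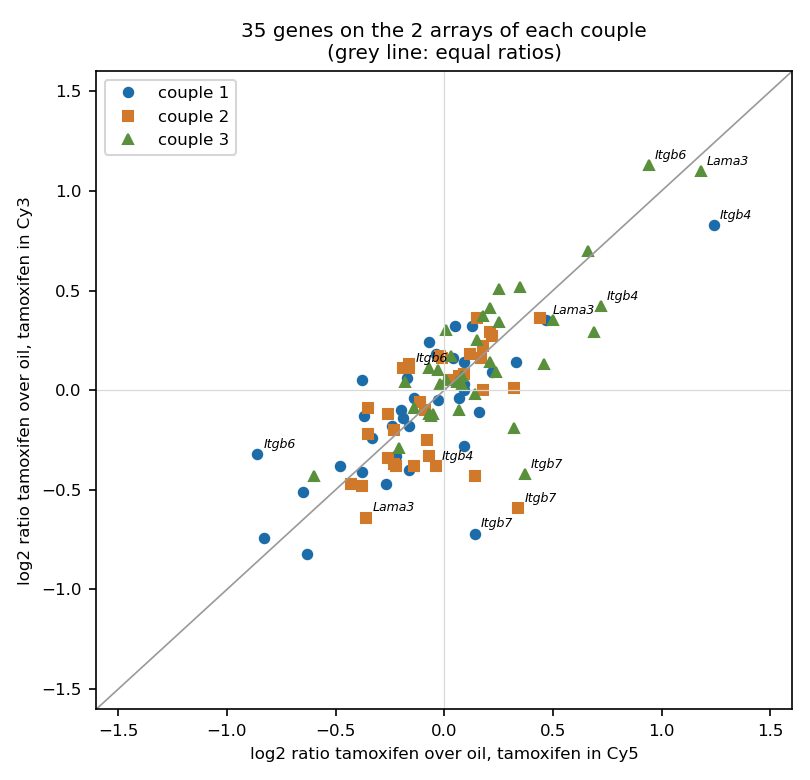
Log2 ratio of tamoxifen over oil of the 35 chains on the array with tamoxifen in Cy5 (x axis) against the array with tamoxifen in Cy3 (y axis), with a symbol for each couple and a grey line for equal ratios. Lama3 in couple 3 lies at 1.18 and 1.10, and Itgb7 lies off the line in each couple, with 0.14 and -0.72 in couple 1.

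Probes of 1 chain were compared couple by couple. The 37 chains had 95 probes, of which 62 were well above background by the same rule, and 17 chains had more than 1 such probe. Of 27 other probes, 11 had a mean of the opposite sign to that of the brightest probe. Where the brightest probe was beyond 0.5 from 0 in a couple, the other probe had the same sign in 8 of 8 cases, out of 81 pairs of a probe and a couple. The larger couple values of Lama3, Itgb6, Itga7, Itgax and Lamb3 were thus on the same side of 0 in a second probe. Itgb4 and Itgb2 had no second probe that was well above background. The same held for Itgae and Itgam, the chains whose groups did not overlap. In tamoxifen and oil, the other probe of Itgae was well above background in 1 of 6 and 0 of 6 readings, and that of Itgam in 0 of 6 and 0 of 6.

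**Figure D5:**
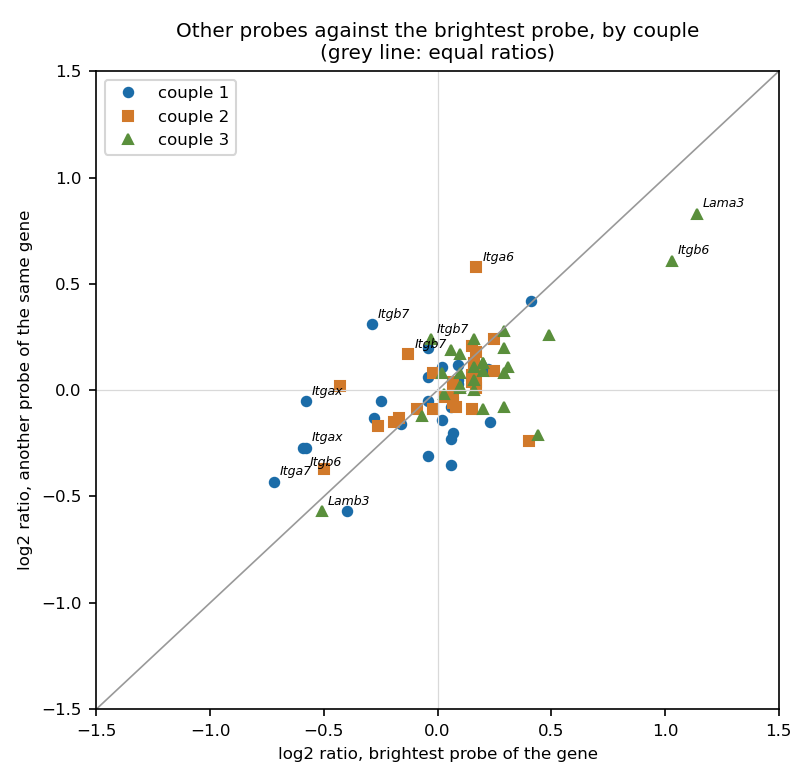
Log2 ratio of tamoxifen over oil of 27 other probes (y axis) against the brightest probe of the same chain (x axis), with 1 symbol per couple and a grey line for equal ratios. In couple 3, Lama3 lies at 1.14 for the brightest and 0.83 for the other probe, and Itgb7 has opposite signs in all 3 couples.

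The 22 tested chains that were not among those with 1 sign on all 6 arrays, the 8 smallest p-values or the 5 largest ranges had mean ratios between -0.27 and 0.20 and adjusted p-values between 0.737 and 0.995. An adjusted p above the threshold does not show that the groups were alike: the median SE of a chain was 0.10 on the log2 scale with 3 couples.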

How the data were processed

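RNA of 3 tamoxifen and 3 oil tumor samples was measured on 6 Agilent 2-colour arrays made from 50 ng of total RNA, per the labels. The deposited scanner files hold spot intensity, as mean foreground and median local background of each channel, not normalized, per the file headers. The submitters' processing notes name Agilent Feature Extraction 12.0.3.1. Its log10 ratio (Cy5 over Cy3) is deposited in the same files, with background subtraction and dye normalization per the file headers, beside scores of 0 or 1 that the software deposited as flags for spots above background, saturated or outlying. The values of the deposited series table are log2 ratios, Cy5 over Cy3. The slope of that table on the log10 ratio was 3.32 to 3.33 over at least 56603 probes per array, so scale and direction were settled, and the software's own centring was kept. Column medians were 0.14, -0.14 and -0.06 for couples 1, 2 and 3 where Cy5 carried the tamoxifen sample, and 0.13, -0.15 and -0.01 where Cy5 carried the oil sample.

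In limma 3.58.1 (R 4.3.3), intensities were corrected by normexp with an offset of 50 and normalized by loess within arrays, with 3671 control spots at weight 0. Between 89 and 132 outlier spots per array were dropped, and repeated spots were averaged to 56605 probes. The brightest probe stood for a gene name, and 20475 genes were tested. A tested probe had to exceed background clearly, by the software's flag, in the tamoxifen or the oil channel of both arrays, in 2 couples or more. Arrays of a couple, the same 2 RNA extracts, were averaged after turning both to tamoxifen over oil, and the 3 couples were tested with lmFit and eBayes at an adjusted p of 0.05. Levels per sample are channels after loess and Aquantile. The offset pulls ratios of dim probes toward 0, and with 6 arrays precision was limited, with a median SE of 0.0983 over all genes. The scripts were tested on simulated data.

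The couple is the pairing: the labels put samples of the same number on the same arrays, so the ratio within a couple is the pairing, and the replicate block over 6 arrays was an alternative (consensus correlation of a couple's arrays 0.64). Other alternatives were the background correction, the normexp offset, median centring, the deposited table, the filter, the mean over probes, single dye orientations, channels taken apart and leaving out each couple. The replicate block with a dye term and the comparison of other probes were added after the data were seen. The members, the gene lists and the tests were chosen with earlier results of these data known.

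Values were given in full for chains with 1 sign on all 6 arrays, the 8 with the smallest unadjusted p, the 5 with the largest range over couples and partner chains. Of the pathway lists, the 2 genes with the smallest p in each direction were named. Itgb7 beyond its part as a partner chain, Marco, Itgb5, Itga7, Lama4 and the marker genes were named after their values were seen. Of the chains, 35 of 37 were matched by accession to the RefSeq table of GRCm38.p6, and 22176 of 36870 names overall. Probe positions are mm9. No exon or UTR annotation of that build was used here. The values of 1 chain are not reported here, though counts and medians include it.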

Additional observations from a re-analysis of the deposited data

How the results depend on the processing

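No integrin or laminin chain passed the threshold under any alternative run. The count over all genes was 0 under each, except 56 with the couple as a replicate block over 6 arrays, 9 with that block and a dye term, added after the data were seen, and 1 with channels taken apart and no replicate block. The block changed no call of a chain. The integrin median lay between -0.12 and 0.02 with each couple left out, and the laminin median between -0.07 and 0.11. Leaving out couple 1 turned Itgb2 to 0.14 (range without each couple -0.38 to 0.14). Leaving out couple 3 turned Itgb6 to -0.31 (range -0.31 to 0.50), Lama3 to -0.05 (-0.05 to 0.77) and Lamb2 to -0.09 (-0.09 to 0.40). Itgb6 was at -0.03 on arrays with tamoxifen in Cy5 alone. Other probes turned Itga1 to -0.12, Itgav to 0.03 and Lamb1 to -0.04. The cause of these turns was not tested. These alternatives were run for the 13 chains with 1 sign on all arrays, the smallest p-values or the largest ranges: 203 further values kept their direction and their side of the threshold, and 8 of 11 other probes kept the direction, with no test run on them. Without couple 1, 2 or 3, the mean changed sign in 7, 5 and 6 of all 35 chains, means near 0 included. Values more than 1.5 times away from those given included Itgae at 0.43 in the scanner software's ratio and the deposited table, Itga1 at 0.01, Itga3 at 0.12 and Itgav at -0.09 as means over probes, Itgam and Itgb1 at -0.11 after median centring, Lamb1 at 0.31 on arrays with tamoxifen in Cy5 and 0.01 on those with it in Cy3, and Itgb4 at 0.29 with tamoxifen in Cy3. Counts of chains below 0 in all couples were 3 to 6, and above 0 in all couples 4 to 6. The slide could not be a block, as there was 1 slide. Signal over background limits Itga2b and Itgad, which could not be tested, and the dim chains Itga2, Itgb8 and Lamc3, which were.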
